A study of Mus musculus with 6 samples.

Results

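The Sox family beyond Sox2 was examined here as 10 genes: Sox1, Sox3 and Sox21 of the SoxB group, Sox4, Sox11 and Sox12 of SoxC, Sox5 of SoxD, Sox9 and Sox10 of SoxE, and Sox15 of SoxG. They were found by symbol in the authors' gene-level table, and 9 of the 10 have a row of their own. Sox1 has no row under its symbol, so its expression was not analysed here. Any level of Sox1 listed under another name is in none of the sums and shares below, which would change with it. All 9 reached at least 1 FPKM (fragments per kilobase of exon, scaled to the number of mapped fragments of a library) in either genotype, as did 14926 genes in all with a symbol and a value above 0 in both. Sox10 passed this limit in control MNs only, so it could pass only by being higher there.

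Motor neurons (MNs) were derived from mouse embryonic stem cells (mESCs) of 2 lines on the FVB/N background. Hb9 is the control line, labelled wildtype and given in the study's methods as SMN2+/+;mSmn+/+, with its cells called control MNs below. A2 is the severe spinal muscular atrophy (SMA) line, SMN2+/+;mSmn-/-, which lacks mouse Smn and keeps human SMN2, with its cells called SMA MNs. Both lines therefore carry SMN2 and an eGFP reporter under the Hb9 (Mnx1) promoter, so the sort selected cells by reporter fluorescence, and each genotype is 1 line. Embryoid bodies of both were treated for 5 days with 1 µM retinoic acid and 1 µM Smoothened agonist, GFP-positive cells were sorted, and libraries of total RNA were made from 3 samples per genotype. The deposited table gives 1 FPKM value per genotype and none per sample, so no value below has an SD or a replicate check. No test was run. The study gives the total reads of each sample, fewest in a control sample, but the reads behind the value of a gene are unknown. A difference between the genotypes cannot be told apart from other differences between the 2 lines.

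Sox proteins are transcription factors that bind the minor groove of DNA through a shared high mobility group (HMG) box, and they are grouped by the similarity of that box. In the neural tube, SoxB1 factors (Sox1, Sox2 and Sox3) keep cells as progenitors, Sox21 of the SoxB2 branch opposes them, SoxC factors act as cells become neurons, and SoxD and SoxE factors take part in the later steps to glia. SoxE factors also act in the neural crest, and Sox15 is known from pluripotent stem cells and muscle precursors.

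Promoters of 7 of the 10 genes were found in the RefSeq table for GRCm38.p6, a later build than that of the expression table, and those of Sox3, Sox9 and Sox10 were not analysed here. The 250 bases before the start site are printed, 5′ to 3′ on the gene's strand, for the member that was higher in SMA MNs (Sox15), for the SoxC gene that was lowest relative to control (Sox11) and for the SoxC gene that differed least (Sox12). They lie at chr11:69654787-69655036 (plus strand), chr12:27342719-27342968 (minus strand) and chr2:152398047-152398296 (minus strand). Capitals mark matches on either strand to 6 motifs, namely the octamer ATGCAAAT bound by POU factors, the Sox core ACAAT, the Sox and Tcf letters ACAAAG, the CCAAT box, the E-box CAGCTG of bHLH factors and the Rbpj letters TGGGAA.
Sox15: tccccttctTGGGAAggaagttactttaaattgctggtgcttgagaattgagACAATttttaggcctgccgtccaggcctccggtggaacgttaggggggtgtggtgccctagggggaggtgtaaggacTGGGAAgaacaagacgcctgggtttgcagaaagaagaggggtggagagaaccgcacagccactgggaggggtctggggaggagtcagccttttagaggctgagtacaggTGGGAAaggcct
Sox11: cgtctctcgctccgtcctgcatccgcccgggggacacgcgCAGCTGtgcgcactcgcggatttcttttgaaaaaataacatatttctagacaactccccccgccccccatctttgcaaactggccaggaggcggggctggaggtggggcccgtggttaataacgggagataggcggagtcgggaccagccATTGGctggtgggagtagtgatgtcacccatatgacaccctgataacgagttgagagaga
Sox12: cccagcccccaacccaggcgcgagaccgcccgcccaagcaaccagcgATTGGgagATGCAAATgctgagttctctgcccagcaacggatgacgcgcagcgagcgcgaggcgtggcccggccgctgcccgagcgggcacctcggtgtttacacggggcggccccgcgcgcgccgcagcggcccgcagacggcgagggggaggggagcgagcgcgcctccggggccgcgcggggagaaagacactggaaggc

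The Sox12 window holds the octamer, whose first base lies 195 bases before the start site, and the reverse of CCAAT at 203. The octamer occurs in 1.6% of the 32851 promoters of the table, and none of the other 6 Sox windows holds it. The Sox15 window holds TGGGAA at 3 places, at 241, 121 and 12 bases before the start, and ACAAT at 198. TGGGAA occurs in 21.6% of all promoters and ACAAT in 27.7%. The Sox11 window holds CAGCTG at 210 and the reverse of CCAAT at 60, which occur in 13.0% and 33.8% of all promoters. The Sox4 window holds CCAAT on either strand at 4 places, with 1 of them overlapping its single TGGGAA by 1 base, and CAGCTG at 211. In the Sox5 window ACAAT was the only motif found, in the Sox1 window CCAAT, and the Sox21 window holds none of the 6. ACAAAG, found in 16.5% of all promoters, is in none of the 7. By base composition the windows run from 39.6% G and C in Sox5 to 74.4% in Sox12, with 58.0% in Sox11 and 55.6% in Sox15, against a median of 52.4% over all promoters. These are matches of letters only.

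Of the 9 Sox genes, 8 had a lower FPKM in SMA than in control MNs and 1, Sox15, had a higher one. At a limit of 2-fold, 7 were lower and 1 was higher, where 22.4% of all 14926 genes were at least 2-fold lower and 6.83% at least 2-fold higher. At 4-fold, 5 were lower (8.88% of all genes) and Sox15 was higher (1.8% of all genes), and at 10-fold 4 were lower (3.22% of all genes). The median log2 ratio of A2 SMA over Hb9 control was -2.04 over the 9 Sox genes and -0.29 over all genes. The median of the members was -3.43 without Sox4 and Sox21, whose rows have the status FAIL, which Cuffdiff gives where its own test could not be completed, and -2.73 over the 8 members with at least 5 FPKM. With so few members the counts describe these genes and carry no test.

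**Figure D1:**
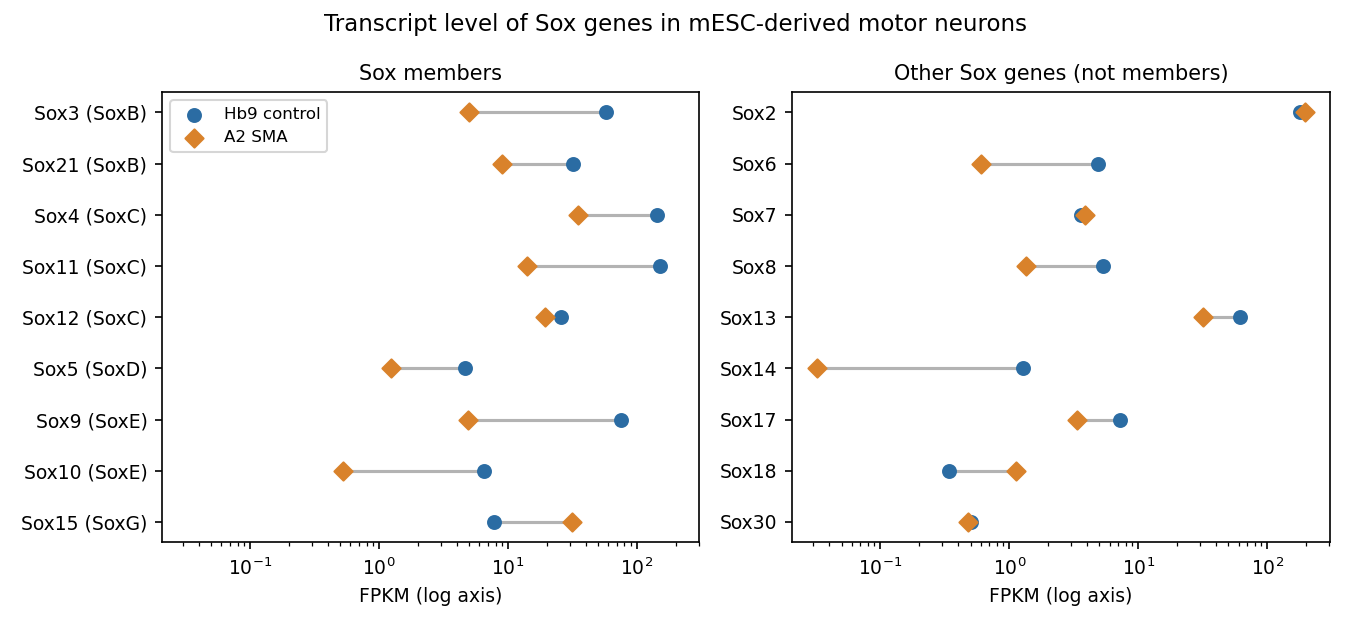
FPKM on a log axis in control (circles) and SMA MNs (diamonds), with a grey line joining the values of a gene, for the 9 Sox members (left) and for the other Sox genes above 0 FPKM (right). Sox15 is the only member whose A2 SMA value lies to the right of its control value, and Sox12 has the shortest line among the members.

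Both SoxB genes with a row were at least 2-fold lower in SMA MNs. Sox3, a SoxB1 factor of neural progenitors, lies on chromosome X from 58144545 to 58146605 of NCBI m37, the build of the table. It was listed at 57.5 FPKM in control MNs and 5.01 FPKM in SMA MNs, 11.5-fold lower, a log2 ratio of -3.52. Only 2.73% of all genes had a lower log2 ratio. The neighbouring Gm14662, whose row starts at 58146828, was listed at 2.02 and 0.242 FPKM, a log2 ratio of -3.06. Sox21, on chromosome 14, was listed at 31.8 FPKM in control MNs and 8.91 FPKM in SMA MNs, a log2 ratio of -1.84. Its row has the status FAIL, and its locus, 118632454 to 118660421, is shared with the predicted gene Gm4675. Gm4675 was listed at 2.72 and 1.995 FPKM, a log2 ratio of -0.45, and its row also has the status FAIL. These neighbours were not listed as lower to the same degree, but reads of their rows may not be told apart. The log2 ratio of the SoxB sum was -2.68, and without the Sox21 row it was that of Sox3 alone. Sox3 exceeded Sox21 in control MNs by a ratio of 1.81, whereas in SMA MNs the ratio was 0.56 and Sox21 had the higher level.

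The SoxB1 gene Sox2, which is not a member, was listed at 179 FPKM in control MNs and 197 FPKM in SMA MNs, a log2 ratio of 0.14. The levels of Sox2 differed 1.10-fold and those of Sox3 11.5-fold, and Sox2 exceeded Sox3 by a ratio of 3.10 in control MNs and 39.4 in SMA MNs. Of the summed FPKM of both genes Sox2 made up 75.6% and 97.5%. The summed level itself was 236 FPKM in control MNs and 202 FPKM in SMA MNs. Sox2ot, the long noncoding gene whose locus encloses Sox2, was listed at 15.4 and 2.70 FPKM, a log2 ratio of -2.52.

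The SoxC group had the highest summed level of the 5 groups of members in control MNs, 321 FPKM, or 63.6% of the 504 FPKM of the 9 genes together. In SMA MNs they summed to 68.4 FPKM, which was still 57.0% of the 120 FPKM of the 9 genes. The log2 ratio of the SoxC sum was -2.23. Its members did not differ alike.

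Sox11, which promotes the expression of neuronal genes as progenitors leave the cell cycle, lies on chromosome 12 from 28019142 to 28027705. It was the most abundant member in control MNs at 151 FPKM, above 95.4% of all genes, and was listed at 14.03 FPKM in SMA MNs. That is 10.8-fold lower, a log2 ratio of -3.43. Sox4, its partner in the same steps, lies on chromosome 13 and was listed at 144 FPKM in control MNs and 35.1 FPKM in SMA MNs. Its log2 ratio was -2.04, a 4.10-fold lower level, and its row has the status FAIL. The locus of the Sox4 row, 29034917 to 29045646, is also that of Gm17419 and is not the extent of Sox4 alone. Gm17419 was listed at 54.4 and 16.1 FPKM with a log2 ratio of -1.75 and the same status. The counting is not stated to use strand, so reads of the Sox4 row and of Gm17419 may not be told apart. This limit also holds for Sox21 with Gm4675, for Sox2 with Sox2ot and for Sox15 with Mpdu1.

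Sox12, known as the weakest activator of the SoxC factors, lies on chromosome 2 from 152219347 to 152223782. It was listed at 25.6 FPKM in control MNs and 19.3 FPKM in SMA MNs, a log2 ratio of -0.41, close to the median of all genes, and 43.9% of genes had a lower ratio. Relative to the median gene its log2 ratio was -0.12. Sox11 exceeded Sox12 by a ratio of 5.91 in control MNs, and the ratio was 0.73 in SMA MNs. The order of the SoxC levels was Sox11, Sox4 and Sox12 in control MNs and Sox4, Sox12 and Sox11 in SMA MNs. Sox11 and Sox4 differed from each other by a ratio of only 1.05 in control MNs, and with no spread between samples their order there is not established.

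The SoxD group has 1 member. Sox5, which has no activation domain of its own and acts as a partner of SoxE factors, lies on chromosome 6. Its row has the locus 143776945 to 144730497. Sox5 was a minor member, at 4.63 FPKM in control MNs and 1.23 FPKM in SMA MNs, a log2 ratio of -1.92. The 7 other rows that share this long locus were all listed at 0 FPKM in both genotypes. Sox6, its close relative and not a member, was listed at 4.90 and 0.598 FPKM, a log2 ratio of -3.03, and the third SoxD gene, Sox13, at 62.0 and 31.6 FPKM, a log2 ratio of -0.97. All 3 SoxD genes were thus lower in SMA MNs, but Sox13 was the most abundant of them in both genotypes.

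Sox9 and Sox10, the SoxE members, had the lowest log2 ratios of the 9 genes when no pseudocount was added. Sox9, which acts in the switch of neural progenitors to glia and in cartilage, lies on chromosome 11 from 112643538 to 112649074. It was listed at 75.4 FPKM in control MNs and 4.87 FPKM in SMA MNs. Its log2 ratio was -3.95, or 15.5-fold lower, and 1.93% of all genes had a lower one. Sox10, a factor of neural crest derivatives and oligodendrocytes, lies on chromosome 15 from 78985343 to 78994920 and was listed at 6.48 FPKM in control MNs and 0.525 FPKM in SMA MNs. Its log2 ratio of -3.62 was near that of Sox9 at a level 11.6-fold lower than Sox9 in control MNs. With a pseudocount of 1 FPKM the log2 ratio of Sox10 was -2.29, above those of Sox3 (-3.28) and Sox11 (-3.34), and Sox9 was still the lowest member at -3.70. The neighbouring Polr2f, a subunit of RNA polymerase, was listed at 129 and 162 FPKM. Sox8, the third SoxE gene and not a member, was listed at 5.32 and 1.34 FPKM, a log2 ratio of -1.99. The sum of Sox9 and Sox10 had a log2 ratio of -3.92, the lowest of the 5 groups, and its share of the summed FPKM of the 9 members was 16.2% in control MNs and 4.49% in SMA MNs.

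The SoxG group has 1 member, and it was higher in SMA MNs. Sox15, which can bind DNA together with Pou5f1 in stem cells, lies on chromosome 11. The locus of its row, 69468518 to 69476144, is also that of Mpdu1 and is not the extent of Sox15 alone. Sox15 was listed at 7.74 FPKM in control MNs and 31.1 FPKM in SMA MNs, 4.01-fold higher, and 98.2% of all genes had a lower log2 ratio. Its share of the summed FPKM of the 9 members was 1.54% in control MNs, where it ranked seventh of them, and 25.9% in SMA MNs, where it ranked second of them behind Sox4. Among all Sox genes with a row, Sox2 and Sox13 were also above it in SMA MNs, Sox13 by a margin too small to be ordered without replicates. Sox4 exceeded Sox15 by a ratio of 18.6 in control MNs and by 1.13 in SMA MNs, so without replicates their order in SMA MNs is not established. The row of Mpdu1, a gene of glycan synthesis, shares the locus and was listed at 133 and 140 FPKM, a log2 ratio of 0.08, and the adjacent Fxr2 at 318 and 297 FPKM, so neither was higher to the degree of Sox15. Reads of the Sox15 row and of the more abundant Mpdu1 may not be told apart, since the counting is not stated to use strand.

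**Figure D2:**
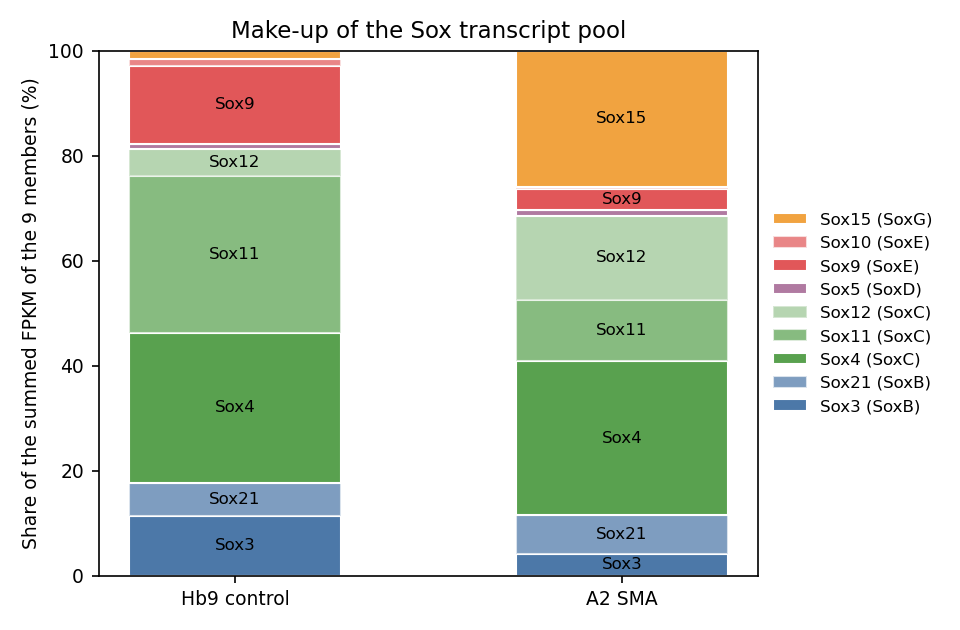
Share of the summed FPKM of the 9 Sox members (%) in control and SMA MNs, with each gene a segment coloured by its Sox group. The SoxG segment is 1.54% of the control bar and 25.9% of the A2 SMA bar, while the SoxE segments together are 16.2% and 4.49%. The bars show shares, and the summed level they divide was 504 FPKM in control MNs and 120 FPKM in SMA MNs.

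Among themselves the 9 genes formed ranges by the size of the difference. Sox3, Sox11, Sox9 and Sox10 had log2 ratios between -3.95 and -3.43, although their control levels ran from 6.48 to 151 FPKM. Sox21, Sox5 and Sox4 lay between -2.04 and -1.84, and Sox12 and Sox15 stood apart at -0.41 and 2.004. The ranges cut across the groups, since SoxB and SoxC each had members in more than one of them. In the order of levels, Sox11, Sox4, Sox9, Sox3, Sox21 and Sox12 were followed by Sox15, Sox10 and Sox5 in control MNs, and in SMA MNs the order was Sox4, Sox15, Sox12, Sox11, Sox21, Sox3, Sox9, Sox5 and Sox10. The levels of Sox3 and Sox9 in SMA MNs, 5.01 and 4.87 FPKM, are too near each other to be ordered without replicates. The same holds there for Sox4 and Sox15, at 35.1 and 31.1 FPKM.

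**Figure D3:**
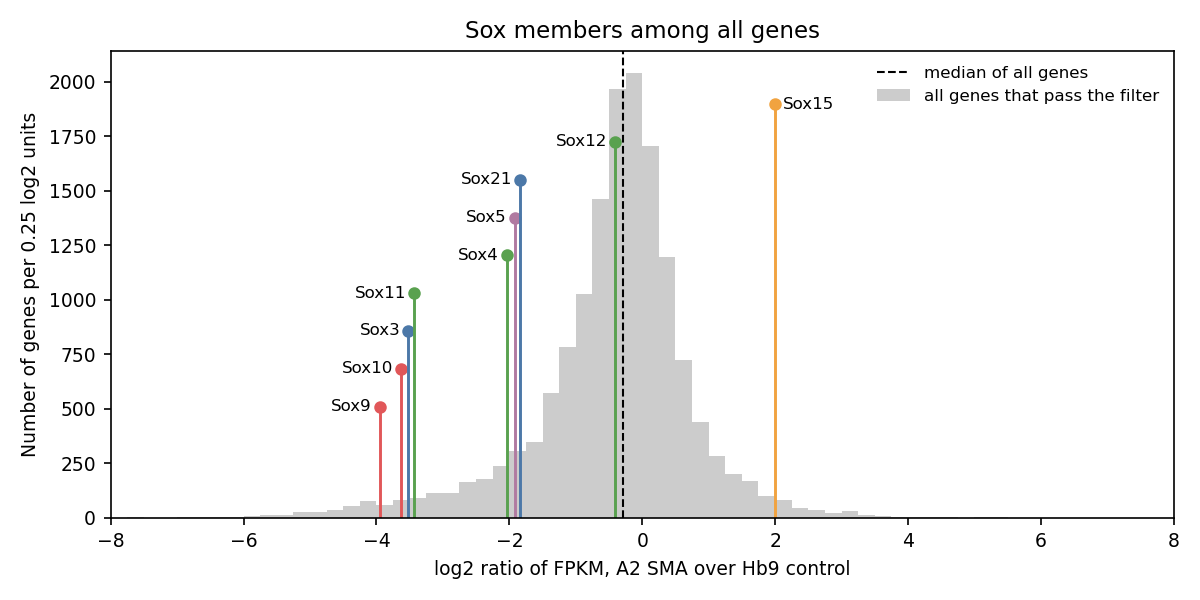
Grey bars count the 14926 genes by log2 ratio of FPKM (A2 SMA over Hb9 control) in bins of 0.25, and the dashed line is their median of -0.29. Coloured stems mark the ratios of the 9 Sox members, with heights chosen only to keep names apart. Sox9, Sox10, Sox3 and Sox11 lie in the lower tail, Sox12 near the median and Sox15 in the upper tail.

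Genes near Sox9, Sox10 and Sox3, the 3 members with log2 ratios farthest from 0, were sought over the log2 levels of the 2 genotypes. Among the nearest were Hoxb7 and Dtx4 for Sox9 (distances of 0.11 and 0.14 on the log2 scale), Pnmal1 for Sox10 (0.06) and Gm12892 and Nell2 for Sox3 (0.21 and 0.22). With 2 values per gene, nearness says only that both levels are alike.

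Of the 10 other Sox genes, 8 passed the filter, with 4 at least 2-fold lower and 1, Sox18, at least 2-fold higher in SMA MNs. Of these 5, Sox6, Sox14 and Sox18 reached 1 FPKM in 1 genotype only, so the filter fixed their direction, and only Sox8 and Sox17 were at least 2-fold lower with 1 FPKM or more in both. Sox14, a SoxB2 gene of ventral interneurons, had the lowest log2 ratio at -5.32 and was listed at 1.28 and 0.0321 FPKM. The endothelial and endodermal SoxF genes were low in both genotypes, with Sox17 at 7.22 and 3.36 FPKM, Sox7 at 3.57 and 3.89 FPKM and Sox18 at 0.341 and 1.13 FPKM. Sox30 was under 1 FPKM in both, and Sry was listed at 0 in both.

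The lists of genes linked to each Sox group were written from general knowledge. Of 15 neural progenitor and radial glia genes linked to SoxB1, 14 were at least 2-fold lower in SMA MNs, with a median log2 ratio of -3.23, and 3 of them passed the filter through control MNs alone. Relative to the median gene, 13 of the 15 were at least 2-fold lower. Vim, an intermediate filament of progenitors, was listed at 1436 and 178 FPKM, Fabp7, a fatty acid binding protein of radial glia, at 553 and 5.52 FPKM, and Msi1, an RNA-binding protein of progenitors, at 191 and 39.6 FPKM. The exception was Pax6, at 22.4 and 21.4 FPKM, whose log2 ratio of -0.07 became 0.22 relative to the median gene. Of 7 genes linked to SoxC, not all of them specific to neurons, 5 had a row under their symbol. All 5 were lower and 3 at least 2-fold, with a median of -2.47. Dcx, a microtubule protein of migrating neurons, was listed at 54.4 and 2.61 FPKM, Dbn1, an actin-binding protein of growth cones, at 266 and 48.0 FPKM, and Tead2 at 366 and 221 FPKM.

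Of 16 glial genes linked to SoxE, 11 passed the filter, with 7 at least 2-fold lower, 2 of which passed through control MNs alone, and 1, Erbb3, higher. The median was -2.20, and without a filter it was -1.32. Olig2, a factor of MN progenitors as well as of oligodendrocytes, was listed at 32.1 and 0.704 FPKM, the glutamate transporter gene Slc1a3 at 32.2 and 6.86 FPKM and Mbp, a myelin gene, at 17.97 and 10.3 FPKM. Of 12 cartilage matrix genes linked to SoxD and SoxE, 7 passed, with 2 lower and 2 higher at 2-fold and a median of -0.83, or -0.20 without a filter. The main cartilage collagen gene Col2a1 was listed at 34.0 and 20.5 FPKM. The neural crest list had 9 genes above the filter, 2 of them lower and 1, Mitf, higher at 2-fold, with a median of -0.44. The lower ones were Ednrb at 166 and 5.94 FPKM and Ngfr at 66.3 and 9.24 FPKM, which are also expressed outside the crest, while Snai1 was listed at 9.42 and 8.45 FPKM and Foxd3 was listed at 2.90 and 3.65 FPKM.

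All 8 genes of the list for elements that join an octamer to a Sox site were at least 2-fold higher in SMA MNs, with a median log2 ratio of 2.78. Sox2 was placed among the other Sox genes and not in this list, and its log2 ratio was 0.14. Pou5f1, the POU factor of pluripotent cells, was listed at 98.3 FPKM in control MNs and 775 FPKM in SMA MNs, Utf1 at 59.8 and 357 FPKM and Fbxo15 at 66.7 and 280 FPKM. Utf1 and Fbxo15 have the status FAIL. This direction was known from earlier results of these data and is no independent support for that of Sox15.

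**Figure D4:**
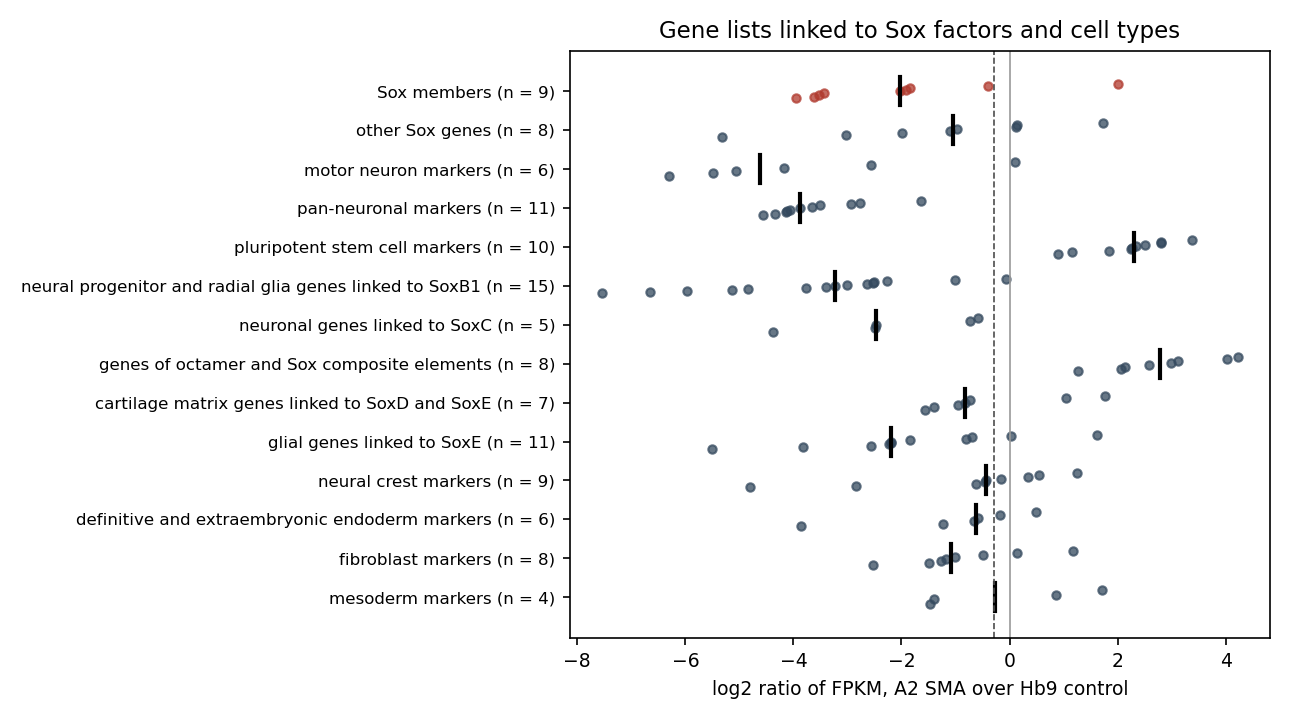
Log2 ratio of FPKM (A2 SMA over Hb9 control) of each gene that passes the filter, for the 9 Sox members (red) and the gene lists (dark), with n genes beside each name, the list median as a black bar, 0 as a solid line and the median of all genes, -0.29, as a dashed line. The medians of the SoxB1-linked, SoxC-linked and SoxE-linked neural lists lie at -3.23, -2.47 and -2.20, and that of the octamer and Sox list at 2.78.

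The sorted cells are bulk samples, so fewer cells of a type and less RNA per cell cannot be told apart. Smn1, the deleted gene, was listed at 137 FPKM in control MNs and 5.26 FPKM in SMA MNs, as the labels have it, and Mnx1 at 41.2 and 44.2 FPKM. Of 8 MN markers 7 had a row, and of the 6 above the filter, Mnx1 among them, the other 5 were at least 2-fold lower in SMA MNs, 3 of them passing through control MNs alone, with Isl1 at 108 and 5.95 FPKM and Lhx3 at 27.6 and 0.348 FPKM. All 11 pan-neuronal markers were at least 2-fold lower, 2 of them passing through control MNs alone (summed level of 1683 and 169 FPKM), and of 10 pluripotent stem cell markers all were higher, 9 of them at least 2-fold (171 and 890 FPKM). None of these markers is at 0 in either genotype. The median log2 ratios were -4.62 for the MN markers, -3.88 for the pan-neuronal markers and 2.30 for the pluripotent stem cell markers. These markers differed between the genotypes together with the Sox genes, and their part in the Sox differences was not tested.

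The summed levels of the other cell type lists in control and SMA MNs were 174 and 59.1 FPKM for 8 endoderm markers, 69.6 and 36.6 FPKM for 8 fibroblast markers, and 19.6 and 33.4 FPKM for 8 mesoderm markers. Median log2 ratios were -0.63 over 6 endoderm markers and -1.09 over 8 fibroblast markers above the filter. For the 4 mesoderm markers above it the median was -0.27 and its sign depended on the processing, so no direction is given. Cxcr4, which neural cells also express, made up the larger part of the endoderm sum in control MNs, at 105 FPKM. In SMA MNs Cxcr4 was listed at 7.24 FPKM and the most abundant endoderm marker was Dab2, at 31.2 FPKM against 35.3 FPKM in control MNs. Cer1 was listed at 0 in control MNs and at 0.0397 FPKM in SMA MNs.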

How the data were processed

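RNA of sorted MNs was sequenced in 3 samples of Hb9 control and 3 of A2 SMA MNs. Per the labels and the study's methods, the authors checked reads with FastQC 0.10.1, removed adapters and poly-A tails with CutAdapt, aligned to NCBI m37 and its Ensembl annotation with TopHat 2.04, and ran Cufflinks and Cuffdiff. The deposited FPKM values were combined by the authors into 1 value per genotype. The table also holds the authors' fold changes, test statistics, p-values and q-values, which were not used. Each symbol was given its row with the highest FPKM, log2 ratios took no pseudocount, and genes had to reach 1 FPKM in a genotype and be above 0 in both. Counts use a limit of 2-fold. The functions were tested on simulated data. Python 3.11.15, numpy 2.4.6, pandas 2.3.3 and matplotlib 3.10.9 were used. Starts are written from 1. The members and lists were chosen with earlier results of these data known. All Sox genes, Smn1, Mnx1, up to 3 most abundant genes per list and the nearest genes are named by rule, and locus neighbours, Pax6, Foxd3, Mitf, Erbb3, Cer1 and the genes that changed sign were named after their values were seen. A gene was left out of the neural crest list and its counts, and a nearest gene is not reported here. Alternatives covered pseudocounts, filters, scaling, summed rows, the status FAIL and other fold limits.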

Additional observations from a re-analysis of the deposited data

How the results depend on the processing

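No paired analysis was possible because the table has 1 value per genotype and no result comes from a test, and for the same reason no replicate could be left out. Values were counted as unmoved within a factor of 1.5, since no spread between samples is known. No log2 ratio of a Sox member or Sox group, and not their median, changed sign under any alternative. Without the status FAIL, which drops Sox4 and Sox21, the median log2 ratio of the 7 remaining members was -3.43 and the SoxB value of -2.68, then Sox3 alone, was -3.52. With at least 5 FPKM, which drops Sox5, the median was -2.73. With a pseudocount of 1 FPKM the log2 ratio of Sox10 was -2.29. Every other value of the members and groups kept within the limit, with Sox12 from -0.41 to -0.12 and Sox15 from 1.87 to 2.29. The share of all genes at least 2-fold higher, 6.83%, was 4.28% with a pseudocount of 1 FPKM and 10.4% when centred on the median gene (log2 ratio of -0.29) or scaled to the upper quartile, where 16.5% were lower. The same alternatives were run on the gene lists after the data had been seen. There the mesoderm median of -0.27 reversed, to 0.089 with a pseudocount of 1 FPKM, 0.68 with no filter, 0.86 with at least 5 FPKM, 0.018 when centred and 0.016 by the upper quartile, and it was -1.40 without the status FAIL. With a pseudocount of 1 FPKM, and with at least 5 FPKM, no other Sox or neural crest gene was 2-fold higher and 1 cartilage gene was. With a pseudocount of 1 FPKM and under each scaling, 3 other Sox genes, without Sox17, and 13 genes linked to SoxB1 were at least 2-fold lower. The MN marker median was -3.59 with a pseudocount of 1 FPKM, and the glial and cartilage medians without a filter were -1.32 and -0.20. Of 119 genes that are no members, 5 changed sign under a scaling: Pax6, Fxr2, Pgk1, Snai1 and Dab2, each listed as slightly lower and, when centred, above the median gene by 0.11 to 0.22. The reads behind each FPKM, and so its counting error, are unknown, which matters most for Sox5 and Sox10.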
